A study of Mus musculus with 4 samples.

Results

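Rnase1, Rnase4 and Ang encode small ribonucleases that cells secrete, and they were followed here over the cell types of the secretory lineage in the mouse duodenum. The 3 genes were taken by symbol out of 31053 genes counted, and they had been picked as leading genes of the cells that the authors' tables name GP. UMIs (unique molecular identifiers, which count captured RNA molecules) were summed over the kept cells of each of the 12 deposited type names in each of 4 single-cell libraries, 2 WT and 2 APC-KO. A level below is in CPM, counts per 1000000 summed UMIs of that type in that library. The 3 members were chosen by their levels in GP cells against other cells, so levels over the types are given as a description without a test. The type names are printed as deposited.

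The WT mice carried Atoh1CreER-T2 and R26RTom, and the APC-KO mice carried Apcfl/fl and R26RTom with a driver that the sample labels write as Atoh1Cre and the series description writes as Atoh1CreER-T2 for both genotypes. All mice of both genotypes carried the Cre driver and the TOM reporter and received tamoxifen, 2 doses of 1 mg/mL by injection 24 h apart, and crypt cells positive for TOM were sorted 12 h after the last dose. Atoh1 is a transcription factor of the secretory lineage, so the driver and the sort set which cells entered the libraries. No age, sex, animal or sequencing batch is given for a library, so p-values below measure only the spread between libraries, which may be technical.

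The ribonuclease A family comprises small secreted enzymes held by disulfide bonds that cut RNA outside the cell. Rnase1 is the pancreatic-type ribonuclease, an efficient enzyme of body fluids. Rnase4 is a ribonuclease with a preference for uridine, and angiogenin, the product of Ang, is a weak ribonuclease that promotes the growth of blood vessels and can cut tRNA in stressed cells. In the mouse intestine the family is best known for Ang4, an antimicrobial product of Paneth cells.

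All 3 genes lie on chromosome 14 in the GENCODE vM21 annotation of GRCm38. Rnase4 (ENSMUSG00000021876) spans chr14:51091077-51106151 and Ang (ENSMUSG00000072115) spans chr14:51091150-51102009, both on the plus strand. Their annotated transcripts overlap in the first exons, which hold no coding bases, over 219 exonic bases in 2 stretches, chr14:51091150-51091253 and chr14:51096359-51096473. Each gene has its own last exon with all of its coding bases, chr14:51101386-51102009 for Ang and chr14:51104807-51106151 for Rnase4. Rnase1 (ENSMUSG00000035896) lies 38.8 kb beyond the end of Rnase4, on the minus strand at chr14:51144998-51146785. The libraries were made with a 3' kit, which reads the ends of transcripts. Of the 50-base stretches in the last 500 transcript bases, 0 of 451 in Rnase1, 0 of 455 in Rnase4 and 0 of 455 in Ang also occurred in a transcript of another gene.

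**Figure D1:**
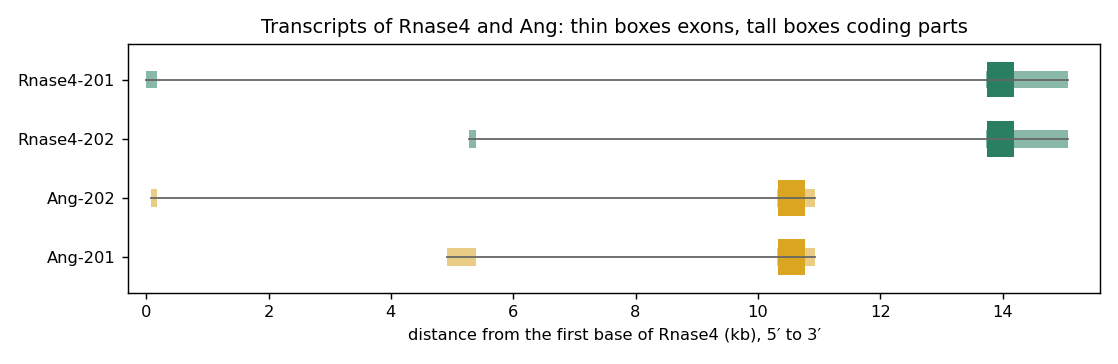
Annotated transcripts of Rnase4 and Ang along the distance in kb from the first base of Rnase4, with thin boxes for exons and tall boxes for coding parts. First exons of the 2 genes overlap near the left end and again left of the middle, and the coding parts lie in separate last exons.

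The start regions are shown because Rnase4 and Ang share a window and varied together over the types, while Rnase1 has its own. In RefSeq's table for GRCm38.p6 each window runs from 250 bases before an annotated start to 50 bases after it. The same window is listed for Rnase4 and for Ang, a further window is listed under Rnase4, and all 3 genes were matched by symbol. In the GENCODE annotation the start of that further window is the first base of an Ang transcript, Ang-201, and no Rnase4 transcript starts there. Lines run 5' to 3' on the strand of the gene, and capitals mark matches to the searched motifs on either strand. These were the TATA box TATAAA, the GC box GGGCGG, the CCAAT box, the E-box CAGCTG, and the TCF/LEF-type motifs CTTTGAA with its relative CTTTGAT.
Rnase4 and Ang, chr14:51090827-51091126, plus strand: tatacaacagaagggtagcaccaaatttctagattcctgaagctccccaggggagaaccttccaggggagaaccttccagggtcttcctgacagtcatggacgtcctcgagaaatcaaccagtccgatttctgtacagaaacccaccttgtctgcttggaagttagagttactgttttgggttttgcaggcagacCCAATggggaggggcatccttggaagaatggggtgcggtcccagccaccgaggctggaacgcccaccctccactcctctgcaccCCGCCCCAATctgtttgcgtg
Listed under Rnase4, chr14:51095750-51096049, plus strand: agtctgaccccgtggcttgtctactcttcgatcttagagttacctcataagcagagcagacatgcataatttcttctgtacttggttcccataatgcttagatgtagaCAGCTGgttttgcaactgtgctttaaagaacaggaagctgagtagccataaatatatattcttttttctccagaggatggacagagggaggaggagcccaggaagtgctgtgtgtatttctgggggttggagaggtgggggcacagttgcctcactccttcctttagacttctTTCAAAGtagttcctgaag
Rnase1, chr14:51146718-51147017, minus strand: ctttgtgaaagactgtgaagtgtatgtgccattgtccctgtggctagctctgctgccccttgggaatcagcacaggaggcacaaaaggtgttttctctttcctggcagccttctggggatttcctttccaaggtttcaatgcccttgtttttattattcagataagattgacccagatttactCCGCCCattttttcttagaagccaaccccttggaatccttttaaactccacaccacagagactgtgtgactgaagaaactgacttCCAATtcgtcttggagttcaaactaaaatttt

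With the annotated start base counted as 1 and the base before it as -1, the shared window held CCAAT at -55 and at 35 and GGGCGG, the GC box, on the minus strand at 30, where it overlaps the second CCAAT. The Rnase1 window held GGGCGG on the minus strand at -67 and CCAAT at 19. The further window held CAGCTG, an E-box of the kind bound by basic helix-loop-helix factors, at -142, and CTTTGAA, a TCF/LEF-type motif of Wnt signalling, on the minus strand at 32. Among 32817 windows of the same length, 37.4% held CCAAT, 35.6% GGGCGG, 16.3% CAGCTG and 5.14% CTTTGAA. No match to TATAAA (13.6% of windows) or CTTTGAT (3.73%) was in these 3 windows. A match is a description of letters and not of a bound site.

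Kept cells numbered 4814 and 3821 in the WT libraries and 356 and 6243 in the APC-KO libraries, with 3009636 to 27285079 UMIs in kept cells of a library. APC-KO replicate 1 stood apart, with 5.15% of its UMIs in kept cells against 37.6% to 50.3% in the other libraries and a median of 8370 UMIs per cell against 3973 to 5354. Pairs of libraries shared between 1 and 8 cell barcodes, and no shared barcode had the same counts in both. Apc was counted at 87.2 and 77.9 CPM in WT, with 88.1 and 88.1 CPM in APC-KO, and 3' tags outside the deleted exons, which are not given in the sources used here, do not check the genotype. The label of GP as the type that these genes lead was checked against the levels. PANETH-PRE cells had a higher level than GP cells for each gene in each library. The GP to other-cell ratio in WT was 1.45 and 1.40 for Rnase1, 1.74 and 1.78 for Rnase4, and 1.60 and 1.52 for Ang. By that ratio Rnase4 ranked 107 of 5565 and 50 of 5722 genes with at least 20 CPM in GP, Ang ranked 249 and 292, and Rnase1 ranked 458 and 667. In APC-KO replicate 2 the ratio for Rnase1 was 0.512. The genes are therefore described below as secreted ribonucleases of several secretory types.

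Rnase1 was highest in cells of the Paneth lineage. Its level in PANETH-PRE cells was 2941 and 3317 CPM in WT against 3041 and 1661 CPM in APC-KO. PANETH cells followed with 939 and 922 CPM in WT, with 1575 and 2465 CPM in APC-KO. APC-KO replicate 2 was the library in which PANETH cells stood above PANETH-PRE cells. The Paneth markers Lyz1, Defa24, Mmp7, Itln1 and Defa17 together made up 386538 and 372150 CPM of PANETH cells in WT. In PANETH-PRE cells they made up 127733 and 107586 CPM in WT, so both names match their markers. CPM is a share of a sum, so these markers leave a smaller share for other genes in PANETH cells.

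The 6 pancreatic acinar markers were checked because Rnase1 is also a product of the pancreas. They summed to 1.95 and 3.05 CPM in WT against 19.3 and 0.990 CPM in APC-KO over all kept cells, with Cpa1, Cela2a, Pnlip and Amy2a5 at 0 in each library. In PANETH-PRE cells they summed to 3.25 and 2.29 CPM in WT, with 0 and 0.735 CPM in APC-KO. Acinar markers were thus near 0 in PANETH-PRE cells, and a part of pancreatic RNA in the Rnase1 level was not tested. The 3 Brunner gland markers summed to 4.87 and 176 CPM in PANETH-PRE cells of WT and to 0 and 2.21 CPM in APC-KO.

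GP cells carried goblet markers at a summed 82979 and 68687 CPM in WT, Paneth markers at 7687 and 9208 CPM and the secretory progenitor markers Atoh1, Dll1 and Spdef at 564 and 639 CPM. They were next for Rnase1, with 374 and 414 CPM in WT, 667 CPM in APC-KO replicate 1 and 245 CPM in APC-KO replicate 2. The value of 667 CPM rests on 32 UMIs in 7 cells, with an exact Poisson 95% interval of 456 to 942 CPM. SEC-PRO cells had 294 and 389 CPM in WT and 347 CPM in APC-KO replicate 2, which overlapped GP in WT. The 5 SEC-PRO cells of APC-KO replicate 1 held 1 UMI of Rnase1. EEC-PRE cells had 256 and 329 CPM in WT against 151 and 315 CPM in APC-KO. GP, SEC-PRO and EEC-PRE cells thus lay below the Paneth lineage.

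GOBLET-PRE cells carried 97.2 and 97.3 CPM of Rnase1 in WT against 318 and 205 CPM in APC-KO. Mature GOBLET cells had the lowest mean in WT, at 12.3 and 9.91 CPM, with 14.7 and 34.6 CPM in APC-KO. They overlapped TUFT cells (23.9 and 3.53 CPM) in WT. The WT mean in PANETH-PRE cells was 281 times that in GOBLET cells, which rests on 10 and 14 UMIs and is read below as background. ISC, ENTERO-PRO, EC, NON-EC and TUFT cells ranged from 3.53 to 71.5 CPM in WT, and their neighbours in the order overlapped apart from EC over ENTERO-PRO. No Rnase1 UMI was found in the 45 EC cells of APC-KO replicate 1, where 3 UMIs would have given 11.0 CPM.

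Rnase4 was also highest in PANETH-PRE cells, at 984 and 1439 CPM in WT, with 914 and 636 CPM in APC-KO. GP cells had 417 and 562 CPM in WT against 334 and 303 CPM in APC-KO, and EEC-PRE cells had 420 and 509 CPM in WT, with 488 and 282 CPM in APC-KO. GP, EEC-PRE and SEC-PRO (353 and 562 CPM) overlapped in WT. NON-EC cells, which carry other gut hormone markers, had 326 and 379 CPM in WT against 414 and 200 CPM in APC-KO. Rnase4 was thus found in hormone cells as well as in the precursors.

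EC cells, which carry the enterochromaffin markers Chga, Chgb, Tph1 and Tac1 at a summed 74348 and 67803 CPM in WT, had 291 and 306 CPM of Rnase4 in WT, with 348 and 221 CPM in APC-KO. PANETH cells had 250 and 296 CPM in WT against 193 and 439 CPM in APC-KO, which overlapped EC. Counted per cell, Rnase4 was higher in PANETH than in EC cells of WT. PANETH held 369 UMIs in 106 cells and 612 in 200, and EC held 365 in 387 and 286 in 270. GOBLET-PRE cells had 207 and 265 CPM in WT and GOBLET cells had 191 and 183 CPM. TUFT (96.7 and 86.6 CPM), ISC (67.1 and 77.3 CPM) and ENTERO-PRO cells (46.1 and 63.0 CPM) were lowest, and the WT mean in PANETH-PRE cells was 22.2 times that in ENTERO-PRO cells.

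Ang followed the order of Rnase4 with small departures. PANETH-PRE cells had 536 and 673 CPM in WT, with 662 and 369 CPM in APC-KO. EEC-PRE cells were next in WT, at 264 and 274 CPM, with 252 and 255 CPM in APC-KO. GP cells had 218 and 227 CPM in WT against 229 and 170 CPM in APC-KO, below EEC-PRE cells without overlap in both genotypes. GOBLET cells had 113 and 113 CPM in WT, with 113 and 118 CPM in APC-KO, the narrowest spread of the types for this gene over the 4 libraries. ISC, TUFT and ENTERO-PRO cells lay between 32.6 and 41.7 CPM in WT.

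**Figure D2:**
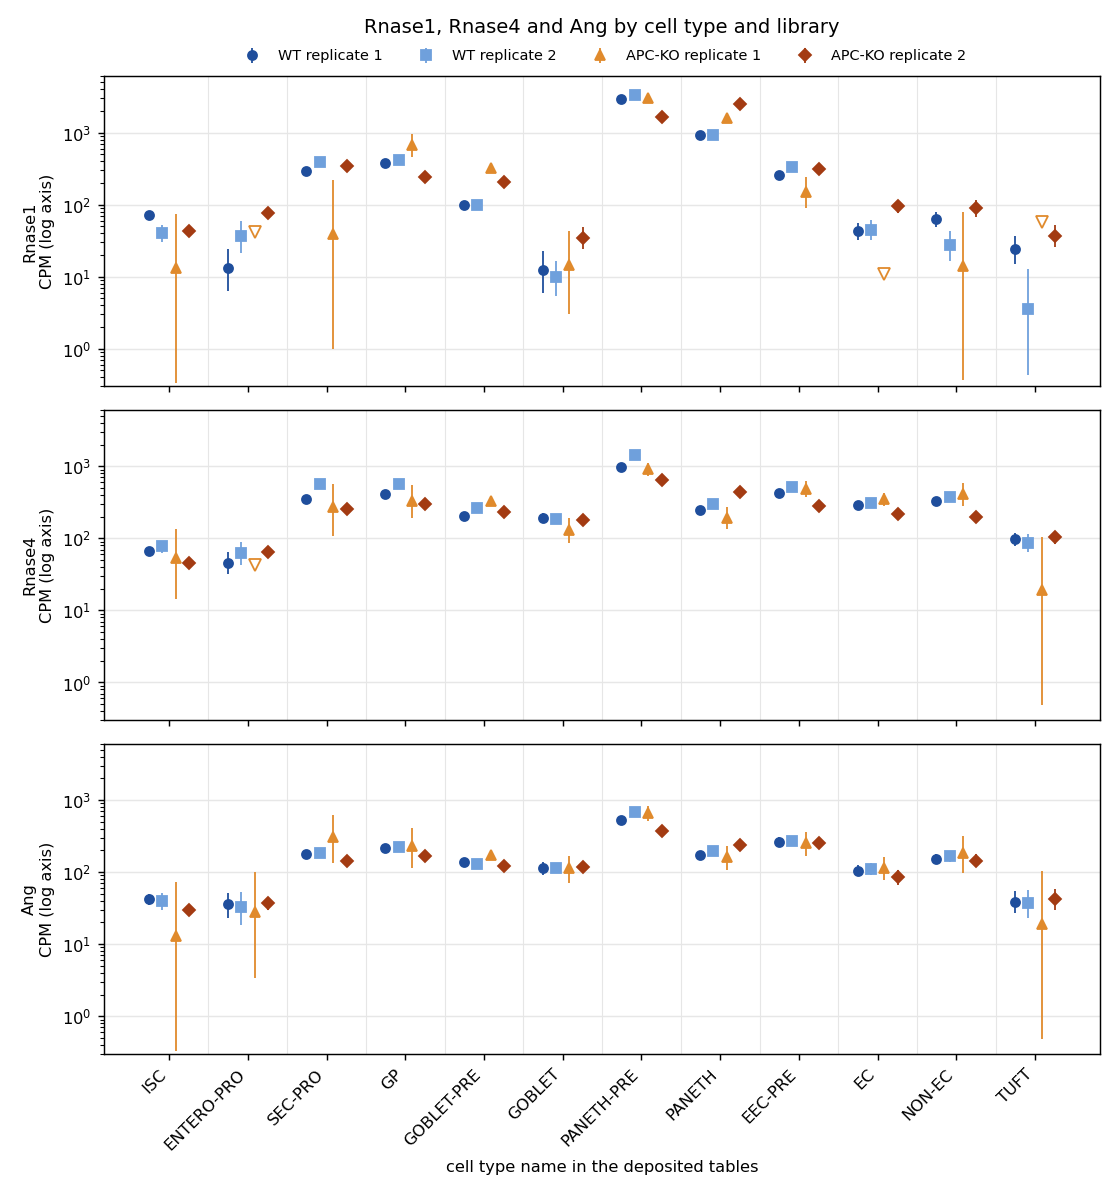
Levels of Rnase1, Rnase4 and Ang in CPM on a log axis for the 12 type names, with 1 point per library and exact Poisson 95% intervals for counting error. PANETH-PRE stands highest in each panel, at 2941 and 3317 CPM for Rnase1 in WT. The exception is Rnase1 in APC-KO replicate 2, at 1661 CPM in PANETH-PRE and 2465 CPM in PANETH. Open triangles mark the level that 3 UMIs would give where a sum held none.

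The lead of PANETH-PRE over GP cells differed in size among the 3 genes. The ratio of WT means was 7.95 for Rnase1, 2.48 for Rnase4 and 2.72 for Ang. Within single libraries it ran from 4.56 to 8.02 for Rnase1, from 2.10 to 2.74 for Rnase4 and from 2.18 to 2.97 for Ang. It was above 1 in each of the 4 libraries for each gene.

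GP cells, a numerous type, nevertheless held a large part of the molecules. In WT they were 16.3% and 16.1% of the kept cells and held 21.7% and 20.5% of the Rnase1 UMIs, 25.0% and 24.6% of the Rnase4 UMIs and 23.4% and 21.9% of the Ang UMIs. PANETH-PRE cells were 2.53% and 2.56% of the cells and held 26.6% and 22.0% of the Rnase1 UMIs. In APC-KO replicate 2, GP cells were 7.29% of the cells and held 3.25% of the Rnase1 UMIs, while PANETH and PANETH-PRE cells held 35.9% and 35.7%. In APC-KO replicate 1, GOBLET-PRE cells were 51.7% of the cells and held 45.9% of the Rnase1 UMIs.

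The share of cells with at least 1 UMI was compared after each cell had been thinned to 2000 UMIs, which left out 161 and 50 WT cells and 10 and 292 APC-KO cells with fewer. Rnase1 was found in 96.7% and 92.9% of thinned PANETH-PRE cells in WT and in 100% and 78.1% in APC-KO (unthinned 99.2%, 98.0%, 100% and 87.7%). In GP cells it was found in 36.2% and 41.5% in WT and in 28.6% and 29.9% in APC-KO (unthinned 54.3%, 63.1%, 57.1% and 41.3%). TUFT cells, chemosensory cells that were low for all 3 genes, gave a comparison for free RNA at 4.23%, 1.68%, 0% and 7.33% in the same library order. The share in GP cells was above that in TUFT cells in each library, and in APC-KO replicate 1 it rested on 7 and 8 cells.

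Median depths before thinning were 5154, 5302, 7533 and 3642 UMIs in GP cells and 3879, 4643, 6934 and 2676 UMIs in TUFT cells. With 8 TUFT cells in APC-KO replicate 1, the share of 0% has an exact binomial upper limit of 36.9%. Thinned GOBLET cells held Rnase1 in 1.84% and 0.370% in WT and 0% and 3.92% in APC-KO, at or below the TUFT share in each library, and this is read as background. Barcodes with 1 to 50 UMIs, which hold free RNA, carried Rnase1 at 153 and 244 CPM in WT against 76.9 and 272 CPM in APC-KO.

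Rnase4 was found in 55.4% and 60.5% of thinned GP cells in WT and in 42.9% and 42.2% in APC-KO (unthinned 79.7%, 85.7%, 85.7% and 61.3%). The TUFT shares were 16.9% and 13.4% in WT and 0% and 14.2% in APC-KO. Ang was found in 31.6% and 35.2% of thinned GP cells in WT and in 14.3% and 28.8% in APC-KO (unthinned 60.0%, 62.1%, 42.9% and 43.5%), against 5.63%, 5.88%, 0% and 7.76% of TUFT cells. PANETH-PRE cells had the highest thinned share of both genes in each library, from 65.4% to 92.9% for Rnase4 and from 48.3% to 72.7% for Ang. Free RNA carried Rnase4 at 155 to 231 CPM and Ang at 90.2 to 117 CPM. The level of Ang in GOBLET cells, 113 to 118 CPM, was near the upper end of that range. With free RNA subtracted at 5% of a sum it was again 113 to 118 CPM. Thinned GOBLET cells held Ang in 20.2% and 19.6% in WT and in 18.5% and 18.8% in APC-KO, above the TUFT share in each library.

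Single cells differed widely in Rnase1. The highest count in a cell was 83 and 92 UMIs in PANETH-PRE cells of WT and 32 and 20 UMIs in GP cells of WT. At least 5 UMIs were found in 84.4% and 87.8% of PANETH-PRE cells and in 13.9% and 15.4% of GP cells in WT. The top 10% of GP cells held 50.6% and 45.3% of the Rnase1 UMIs of that type in WT, against 28.0% and 29.7% in PANETH-PRE cells. Rnase1 was thus spread over most PANETH-PRE cells and gathered in fewer GP cells. All 3 genes were found together in 53.3% and 60.2% of thinned PANETH-PRE cells and in 9.78% and 13.6% of thinned GP cells in WT.

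**Figure D3:**
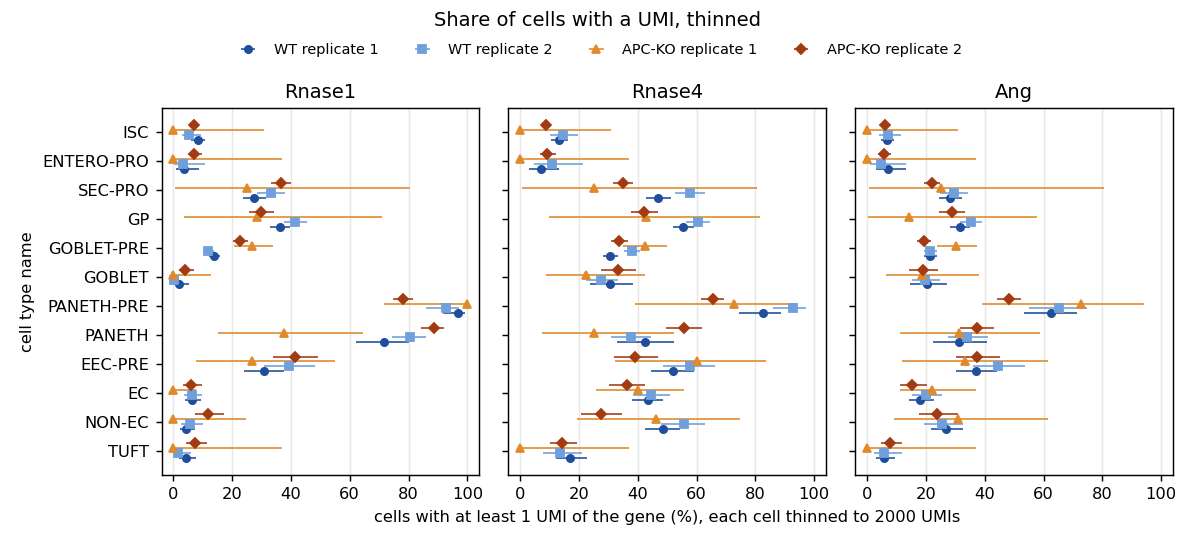
Share of cells in percent with at least 1 UMI of each gene after thinning to 2000 UMIs per cell, with 1 point per library and exact binomial 95% intervals. PANETH-PRE cells stand at the right of each panel, at 96.7% and 92.9% for Rnase1 in WT, and TUFT cells at 4.23% and 1.68%. The exception is Rnase1 in APC-KO replicate 2, where PANETH cells stand further right (88.7% against 78.1%).

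Because Rnase4 and Ang have annotated transcripts with shared first exons and separate last exons, the share of Ang in the summed UMIs of both genes was followed over the types. In WT it was lowest in EC cells, at 26.4% ± 0.0473 (SD, n = 2), and highest in PANETH cells, at 40.6% ± 0.878 (SD, n = 2). GP cells lay between them at 31.5% ± 3.94 (SD, n = 2), with 34.3% (exact binomial 95% interval 32.5% to 36.2%) in replicate 1 and 28.7% (27.0% to 30.5%) in replicate 2. Those intervals do not overlap, so the WT libraries of GP differed by more than counting error. Most neighbours in the order overlapped, and EC and PANETH did not overlap in WT.

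EC cells kept a low share in APC-KO, at 24.6% and 27.9%, while PANETH cells had 45.3% and 35.2%. Between genotypes the share in GP cells was 6.78 percentage points higher in APC-KO, in GOBLET cells 5.15 points higher and in PANETH-LINEAGE, the PANETH and PANETH-PRE cells together, 2.69 points higher. It differed by -1.82 points in GOBLET-PRE cells, by -0.203 points in EC cells and by 2.49 points in ALL, the sum of all kept cells. The two-sided exact permutation p was 0.333 in GP and GOBLET, 0.667 in PANETH-LINEAGE and ALL, and 1.00 in GOBLET-PRE and EC. With 2 libraries against 2, 0.333 is the smallest p that the test can give, so no difference in this share could pass.

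**Figure D4:**
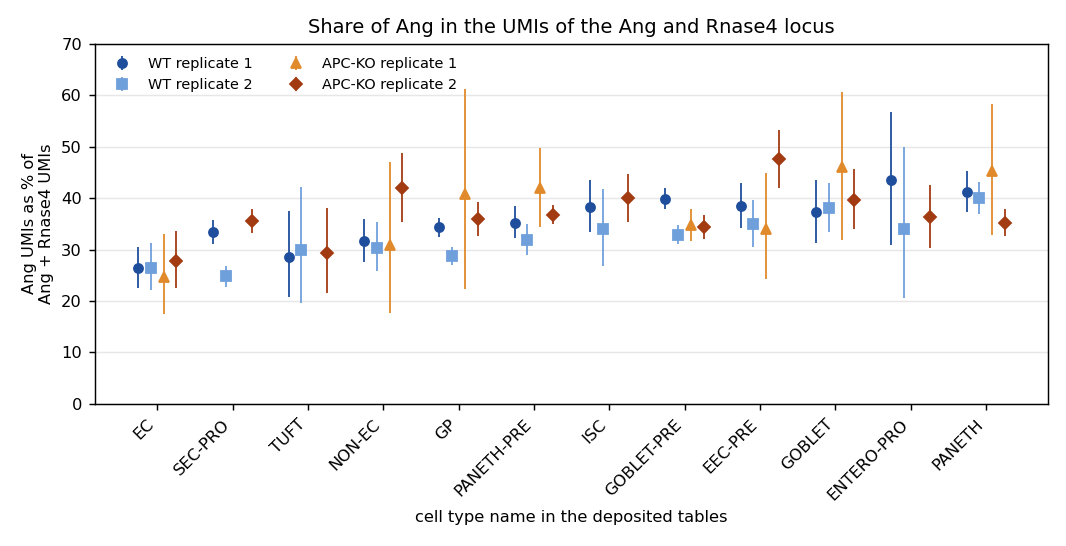
Ang UMIs as percent of the Ang and Rnase4 UMIs of a sum, with types ordered by the WT mean, 1 point per library and exact binomial 95% intervals. Sums with under 20 UMIs of both genes together are not drawn. The WT points run from 26.4% and 26.5% in EC to 41.2% and 40.0% in PANETH.

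The genes whose levels most resembled each member were ranked by Pearson's r of log2(CPM + 1) over the 24 WT sums of 12 types and 2 libraries, among 6059 genes with a mean of at least 20 CPM. The sums share libraries and depth, so r is a description. For Rnase1 the leading genes were Mmp7 (0.908), the matrilysin that activates Paneth cell defensins, Habp2 (0.897), a secreted serine protease, Bhlha15 (0.856), a transcription factor of cells with a large secretory apparatus also known as Mist1, Sypl (0.832), a vesicle membrane protein, and Cfi (0.816), the complement factor I protease. In the 12 sums of APC-KO replicate 2 the same 5 genes had r of 0.960, 0.964, 0.898, 0.919 and 0.688 with Rnase1.

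Rnase4 and Ang were each other's nearest gene, with r of 0.966 in WT and 0.957 in APC-KO replicate 2. After that pair the nearest genes to Rnase4 were Fxyd3 (0.871), a regulator of the sodium pump, 5330417C22Rik (0.863), Adgre5 (0.855), the adhesion receptor CD97, and Rab15 (0.814), a small GTPase of membrane traffic. For Ang they were 5330417C22Rik (0.877), Fxyd3 (0.842), Adgre5 (0.832) and Cd63 (0.818), a tetraspanin of secretory granules and lysosomes. Rnase1 was less close to both, with r of 0.750 to Rnase4 and 0.803 to Ang in WT.

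Of the other ribonuclease A genes on a fixed list, 17 had a row in the files and Ang4 was the 1 of them with at least 20 CPM in a WT type. Ang4 had 86445 UMIs in kept cells, Rnase12 had 20, Rnase6 had 17 and the other 14 had 0. Its level in PANETH cells was 13566 and 14389 CPM in WT, with 11383 and 6539 CPM in APC-KO, and in PANETH-PRE cells 2519 and 3301 CPM in WT against 1147 and 383 CPM in APC-KO. The 3 members thus peaked in PANETH-PRE cells in WT and Ang4 in PANETH cells. In the last 500 transcript bases of Ang4, 6.87% of 50-base stretches also occur in Ang2 or Ang5.

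Other ribonucleases and partners had another distribution. Rnh1, the cytosolic ribonuclease inhibitor that binds these enzymes, had its highest CPM in GOBLET cells (237 and 306 in WT). Its lowest CPM was in PANETH cells (29.1 and 47.3 in WT), where Paneth markers fill much of the sum. Counted per cell, PANETH was not lowest, with 43 Rnh1 UMIs in 106 cells and 98 in 200. EC cells held fewer per cell, with 67 UMIs in 387 cells and 64 in 270. Plxnb2, a receptor for angiogenin, ranged in WT from 20.8 CPM in PANETH to 93.8 CPM in NON-EC cells. The lysosomal ribonucleases Rnaset2a and Rnaset2b stayed below 85 CPM in each WT sum.

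The genotypes were compared by edgeR's quasi-likelihood test on summed UMIs, adjusted by Benjamini-Hochberg over the genes of a fit at 0.05. The 6 fitted sums had at least 20 cells in each library, except GP. GP was let in at 5 cells because the members had been picked as its leading genes, an exception planned for GP only. In GP cells Rnase1 stood at 374 and 414 CPM in WT against 667 and 245 CPM in APC-KO, and the APC-KO libraries lay on either side of WT. The fitted log2 difference (APC-KO minus WT, as throughout) was -0.22 ± 0.24 (SE), with an adjusted p of 0.837 by edgeR. Rnase4 was at 417 and 562 CPM in WT against 334 and 303 CPM in APC-KO, without overlap, with a difference of -0.61 ± 0.24 and an adjusted p of 0.195 by edgeR. Ang differed by -0.26 ± 0.22, with an adjusted p of 0.736 by edgeR.

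None of the 3 members was called in GP cells, where edgeR called 269 of 9362 genes (2.87%), and 1 of the 3, Rnase4, had an unadjusted p under 0.05, as 12.3% of genes did. Groups without overlap were found for 42.3% of genes in this fit, so that property of Rnase4 was common. DESeq2 called none of the 3 members and 2 genes in all (0.0131%). APC-KO replicate 1 had 7 GP cells. Without it the difference of Rnase1 was -0.58 with an adjusted p of 0.0461 by edgeR, and without APC-KO replicate 2 it was 0.58, so the direction in GP cells rests on which of the 2 libraries is used. Where a library is left out, here and below, its genotype keeps 1 library, which is assumed to vary like the 2 of the other genotype.

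GOBLET-PRE cells held the widest difference of Rnase1. Its level was 97.2 and 97.3 CPM in WT against 318 and 205 CPM in APC-KO, and both APC-KO libraries lay above both WT libraries. The log2 difference was 1.55 ± 0.25 (SE), with an unadjusted p of 3.5e-04 and an adjusted p of 0.310 by edgeR, so it did not pass. By p it ranked 11 of 10272 genes, of which edgeR called 1 (0.00974%) and 41.8% had groups without overlap. Rnase4 differed by 0.37 ± 0.23 and Ang by 0.26 ± 0.22 in these cells, with adjusted p of 0.701 and 0.775 by edgeR and overlapping groups. None of the 3 members was called by edgeR, and 1 had an unadjusted p under 0.05, beside 7.95% of all genes in that fit.

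DESeq2 called Rnase1 in GOBLET-PRE cells, at a log2 difference of 1.54 with an adjusted p of 5.6e-05, among 36 genes (0.261%). Without WT replicate 1 or either APC-KO library (1, then 2) the edgeR difference of Rnase1 was 1.60, 1.14 and 1.88, and each passed (adjusted p of 0.0325, 0.0391 and 0.0221 by edgeR). Without WT replicate 2 it lay within that range and did not pass (adjusted p of 0.0797 by edgeR). The size was therefore 1.14 to 1.88 in these fits and the call depended on the fit. Rnase1 was found in 13.9% and 11.8% of thinned GOBLET-PRE cells in WT and in 26.9% and 22.7% in APC-KO (unthinned 25.1%, 24.3%, 49.5% and 34.6%). The top 10% of these cells held 70.3% and 71.7% of their Rnase1 UMIs in WT and 71.6% and 62.9% in APC-KO.

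Markers of other types also differed in GOBLET-PRE cells. The 5 Paneth markers summed to 6751 and 5265 CPM in WT, with 7239 and 14796 CPM in APC-KO, with all 5 detected in each library as a whole. The 4 enterocyte markers Fabp1, Alpi, Apoa1 and Sis summed to 58.3 and 54.6 CPM in WT against 153 and 102 CPM in APC-KO, and the 4 immune markers to 100 and 134 CPM against 235 and 194 CPM. The 7 goblet markers summed to 188361 and 165875 CPM in WT, with 191575 and 191184 CPM in APC-KO. The part of these marker differences in the Rnase1 difference was not tested. The order of the APC-KO libraries was opposite for Rnase1 (318 and 205 CPM) and for the Paneth markers (7239 and 14796 CPM). An order of 2 libraries, here of 184 and 1079 cells, cannot decide on that part.

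In GOBLET cells Rnase1 was at 12.3 and 9.91 CPM in WT against 14.7 and 34.6 CPM in APC-KO, from 3 to 34 UMIs per sum. The log2 difference was 1.34 ± 0.42 (SE), with an adjusted p of 0.297 by edgeR, and it was 0.18 without APC-KO replicate 2. Rnase4 differed by -0.36 ± 0.26 and Ang by -0.11 ± 0.24, with adjusted p of 0.644 and 0.897 by edgeR. None of the 3 members was called by edgeR or by DESeq2 (6 genes called, 0.0471%). An unadjusted p under 0.05 was found for 1 member, Rnase1, and for 11.2% of genes. In this fit edgeR called 5 of 5974 genes (0.0837%) and 44.0% of genes had groups without overlap, as Rnase1 and Rnase4 did.

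Cells of the Paneth lineage gave no call for the members. In PANETH-LINEAGE, Rnase1 was at 1529 and 1340 CPM in WT against 2120 and 1986 CPM in APC-KO, and the groups did not overlap. The fitted log2 difference was 0.03 ± 0.37 (SE), with an adjusted p of 0.991 by edgeR, on the TMM scaling of that fit. With summed UMIs alone as scaling, the median of all genes moved by 0.68 on the log2 scale, and the calls moved from 21 higher and 36 lower to 535 higher and 37 lower. Groups without overlap were found for 51.2% of genes here, and edgeR called 57 of 8599 genes (0.663%).

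In PANETH-LINEAGE, Ang was at 282 and 280 CPM in WT against 347 and 317 CPM in APC-KO, without overlap, as for 51.2% of genes. The groups overlapped for Rnase4. The fitted difference was -0.44 ± 0.29 for Rnase4 and -0.27 ± 0.30 for Ang, with adjusted p of 0.514 and 0.735 by edgeR. Both turned positive with summed UMIs alone as scaling, at 0.09 and 0.24. Rnase1 was at 0.52 on that scaling, with an adjusted p of 0.322 by edgeR. An unadjusted p under 0.05 was found for 0 of the 3 members and for 14.8% of genes, and DESeq2 called none of the members among 35 genes (2.15%). The mix within the lineage also differed, with 122 and 98 PANETH-PRE cells beside 106 and 200 PANETH cells in WT and 11 and 602 beside 16 and 274 in APC-KO.

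Each type was therefore fitted alone, as an addition made after the data were seen. In PANETH-PRE cells the differences were -0.36 ± 0.37 for Rnase1, -0.62 ± 0.34 for Rnase4 and -0.24 ± 0.34 for Ang, with adjusted p of 0.789, 0.490 and 0.871 by edgeR, which called 85 of 5568 genes (1.53%). In PANETH cells they were 0.53 ± 0.38, -0.36 ± 0.33 and -0.47 ± 0.30, with adjusted p of 0.650, 0.738 and 0.603 by edgeR, which called 98 of 6942 genes (1.41%). With summed UMIs alone as scaling, the median of all genes moved by 0.68 in PANETH and by 0.08 in PANETH-PRE cells. Mean CPM in PANETH cells was 273 in WT and 316 in APC-KO for Rnase4, and 186 and 199 for Ang. The fitted signs of these 2 genes in PANETH cells were thus opposite to those of their CPM means. An unadjusted p under 0.05 was found for 0 of the 3 members in either type and for 12.1% of genes in both. In PANETH-PRE cells Rnase4 did not overlap between genotypes (984 and 1439 against 914 and 636 CPM), as for 33.6% of genes. Rnase1 CPM in PANETH cells did not overlap between genotypes (939 and 922 against 1575 and 2465), as for 47.6% of genes. Paneth markers in PANETH-PRE cells summed to 127733 and 107586 CPM in WT, with 96489 and 40961 CPM in APC-KO. Their part in the differences was not tested.

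EC cells had Rnase1 at 43.1 and 44.9 CPM in WT, at 0 CPM in APC-KO replicate 1 and at 94.5 CPM in APC-KO replicate 2. The APC-KO libraries again lay on either side of WT, and the difference was 0.64 ± 0.57 (SE), with an adjusted p of 0.812 by edgeR. Paneth markers in EC cells had the same order of libraries, at 2402 and 3292 CPM in WT against 706 and 4011 CPM in APC-KO, and their part in the result was not tested. Rnase4 differed by -0.05 ± 0.24 and Ang by -0.11 ± 0.22, with adjusted p of 0.978 and 0.920 by edgeR. None of the 3 members was called, had an unadjusted p under 0.05 or had groups without overlap, which 38.9% of genes had. In this fit edgeR called 0 of 8690 genes (0%). Of all genes 729 (8.39%) reached p under 0.05 before adjustment. DESeq2 called 14 (0.706%) of the genes to which it gave an adjusted p. It gave none to 1 of the 3 members or to Ang4 in EC cells. With 1 APC-KO library left, the difference of Rnase1 was 1.14 without APC-KO replicate 1 and negative without APC-KO replicate 2, where the sum held 0 UMIs (adjusted p of 0.00130 and 0.00160 by edgeR).

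Over all kept cells Rnase1 was at 276 and 314 CPM in WT, with 410 and 464 CPM in APC-KO, without overlap, as for 34.5% of genes. The difference was 0.66 ± 0.19 (SE), with an unadjusted p of 0.0180 and an adjusted p of 1.00 by edgeR. Rnase4 differed by -0.08 ± 0.29 and Ang by 0.09 ± 0.24, each with an adjusted p of 1.00 by edgeR. None of the 3 members passed, 1 had an unadjusted p under 0.05, and edgeR called 0 of 13345 genes (0%). Before adjustment 495 genes (3.71%) were under 0.05, and DESeq2 called 21 (0.130%), none of them a member. PANETH-PRE cells were 2.53% and 2.56% of the cells in WT and 3.09% and 9.64% in APC-KO. PANETH cells were 2.20% and 5.23% in WT and 4.49% and 4.39% in APC-KO. This sum also reflects the mix of types, and more cells of a type and more RNA per cell cannot be told apart in it.

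**Figure D5:**
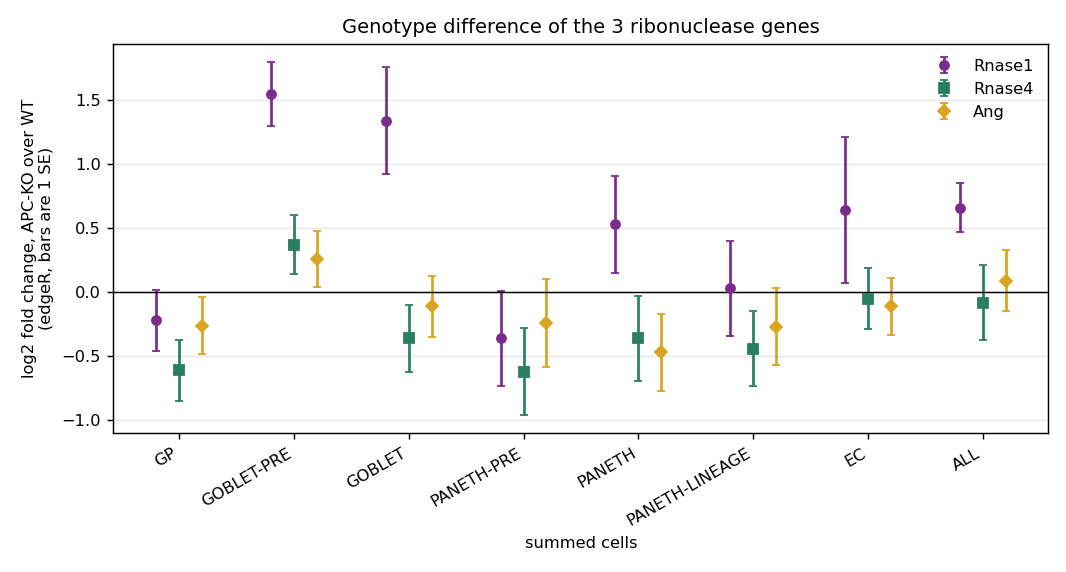
Log2 difference between APC-KO and WT for Rnase1, Rnase4 and Ang in 8 sums of cells, with bars of 1 SE from edgeR fits of 4 libraries each. Rnase1 stands highest in GOBLET-PRE (1.55) and GOBLET (1.34, from 3 to 34 UMIs per sum) and below 0 in GP (-0.22) and PANETH-PRE (-0.36). No point passed the adjusted threshold in these fits.

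Whether the genotype difference itself differed among types was tested in 1 fit of 5 types (GP, GOBLET-PRE, GOBLET, PANETH-LINEAGE and EC) with the library as a block, 20 sums in all. It differed for Rnase1, with F of 9.23 and an adjusted p of 1.3e-04 by edgeR, which called 280 of 10759 genes (2.60%). Against the difference in GP cells, that of Rnase1 was 1.70 higher in GOBLET-PRE, 1.56 higher in GOBLET, 0.91 higher in EC and 0.18 higher in PANETH-LINEAGE on the log2 scale. The GOBLET sums held 3 to 34 Rnase1 UMIs, at a share of cells read above as background. Rnase4 and Ang had adjusted p of 0.138 and 0.401 by edgeR and were not called.

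The call for Rnase1 was lost without WT replicate 1 (adjusted p of 0.351 by edgeR) and without WT replicate 2 (0.691). It was kept when APC-KO replicate 1 (3.8e-17) or 2 (4.8e-12) was left out. Rnase4 passed with APC-KO replicate 1 left out (adjusted p of 0.0425 by edgeR) and with replicate 2 left out (1.6e-04).

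Among the related genes, Ang4 was lower in GP cells of APC-KO, at 20.9 and 115 CPM against 215 and 744 CPM in WT. The log2 difference was -2.08 ± 0.26 (SE), with an adjusted p of 8.8e-13 by edgeR. The value of 20.9 CPM rests on 1 UMI in 7 cells, with an exact Poisson 95% interval of 0.528 to 116 CPM. Levels of Ang4 in GP cells were below those of free RNA, which carried it at 757 and 1955 CPM in WT against 491 and 513 CPM in APC-KO. The part of free RNA was not tested beyond its subtraction at 5%, where the difference of Ang4 in GP cells was -2.22. DESeq2 did not call Ang4 in GP cells (adjusted p of 1.00), and without WT replicate 2 the edgeR difference was -1.08. Ang4 was not called in the other 5 fits, with differences from -1.63 to -0.52, and in PANETH-PRE cells alone it fell by 1.91 on the log2 scale (adjusted p of 0.0145 by edgeR). Of the 4 other ribonucleases and partners (Rnh1, Plxnb2, Rnaset2a and Rnaset2b), 0 passed edgeR's test in either direction in each of the 6 fits, with 1 at an unadjusted p under 0.05 in GOBLET-PRE and in GOBLET and 0 in the others. DESeq2 called 0 of them, and it gave no adjusted p for 3 of the 4 in PANETH-LINEAGE or for any of the 4 in EC. Their median log2 difference ran from -0.40 in GOBLET to 0.21 in EC, beside medians of all genes between -0.02 and 0.01.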

How the data were processed

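The authors' deposited matrices hold raw UMI counts per gene and barcode, made with Cell Ranger 3.0.2, which uses STAR, on build mm10, per the submitters' processing notes. Their annotation and settings are not given in the sources used here. The deposited per-cell tables give UMI and gene counts, the mitochondrial percent, a library name and a type name for each kept cell. How the authors filtered and named cells, and whether they removed doublets, is not stated. The values show 901 to 2999 genes and under 7% mitochondrial UMIs per cell. No doublet caller was run here.

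UMIs of kept cells were summed per type and library and read as CPM. Counting intervals were exact Poisson or exact binomial at 95% and cover counting error only. A type was fitted where each library had at least 20 cells (5 for GP), along with PANETH-LINEAGE and ALL. Genotypes were tested on these sums in R 4.3.3 by edgeR 4.0.16 (TMM, filterByExpr, quasi-likelihood test, Benjamini-Hochberg at 0.05). The script was tested on simulated data. Alternatives were DESeq2 1.42.0 size factors, the DESeq2 Wald test, no filter, cells thinned to 2000 UMIs or held to that minimum, leaving out 1 library at a time, a replicate block, and free RNA (barcodes with 1 to 50 UMIs) subtracted at 5% of a sum. Summed UMIs alone as scaling, PANETH or PANETH-PRE cells alone, and a crossed block in ALL were added after the data were seen.

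The members and gene lists were chosen with earlier results of these data known. The text names the 3 members, listed relatives with at least 20 CPM in a WT type, and the 5 genes nearest to each member. Positions came from GENCODE vM21 (GRCm38), which matched 30934 of 31053 gene IDs (99.6%), and start windows from RefSeq's table for GRCm38.p6. 1 gene of the list of other ribonucleases and partners is not reported here, and the list's counts and medians leave it out.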

Additional observations from a re-analysis of the deposited data

Results flagged for a closer look

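The genotype difference of Rnase1 differed among the 5 fitted types, with an adjusted p of 1.3e-04 by edgeR in the fit of 20 sums. The difference was -0.22 on the log2 scale in GP, 1.55 in GOBLET-PRE, 1.34 in GOBLET, 0.03 in PANETH-LINEAGE and 0.64 in EC when each was fitted alone, and none of these 5 passed by edgeR. The GP sum of APC-KO replicate 1 held 32 Rnase1 UMIs in 7 cells and its EC sum held 0 in 45 cells. GOBLET sums held 3 to 34 Rnase1 UMIs, at a share of cells read above as background. Without either WT library the test of the difference among types was not passed (0.351 and 0.691).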

How the results depend on the processing

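Depth limits the APC-KO arm, where replicate 1 gave 356 cells and as few as 5 of a type, and 2 libraries per group limit each test. Of 223 alternative values of the 3 members in the 6 fits, 193 kept direction and side of the threshold. Another 9 kept direction and passed it newly, and 21 changed sign, counted whether or not they passed. Of 83 counts of genes called, 35 stayed within 1.5 times the first count. The cause of the changes below was not tested.

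With DESeq2's Wald test the genes called were 2 in GP, 36 in GOBLET-PRE, 35 in PANETH-LINEAGE, 14 in EC and 21 in ALL, and Rnase1 was at 0.01 in GP, -0.01 in PANETH-LINEAGE and, called, 1.54 in GOBLET-PRE. Without a filter the counts were 280 in GOBLET-PRE, 79 in GOBLET, 477 in PANETH-LINEAGE, 174 in EC and 21 in ALL, with Rnase1 at -0.01 in PANETH-LINEAGE and, called, 1.52 in GOBLET-PRE. With summed UMIs alone they were 3 in GOBLET-PRE, 10 in GOBLET and 572 in PANETH-LINEAGE, Ang was at 0.04 in GOBLET, 0.24 in PANETH-LINEAGE and -0.01 in ALL, and Rnase4 at 0.09 in PANETH-LINEAGE. Thinned cells gave 108 in GP, 15 in GOBLET-PRE and 4 in EC, with Rnase1 at -0.41 in PANETH-LINEAGE and, called, 1.52 in GOBLET-PRE. With free RNA subtracted the counts were 0 in GOBLET-PRE, 3 in GOBLET and 124 in PANETH-LINEAGE, Rnase1 was at -0.04 in PANETH-LINEAGE, its WT ratio of PANETH-PRE to GP was 8.11, and Ang4 was at 1.37 in EC. PANETH-PRE cells alone put Rnase1 at -0.36, and PANETH cells alone gave 98 genes. DESeq2 size factors put the adjusted p of Rnase4 among types, by edgeR, at 0.0234.

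The labels number the replicates and state no pairing of libraries between genotypes. Deviations of same-numbered libraries correlated at -0.05 to 0.01 in 5 fits and at -0.31 in ALL. With 2 libraries per group and as few as 7 cells in a fitted sum, these values cannot decide whether libraries were paired. The replicate block gave 76 genes in GP, 110 in GOBLET-PRE, 73 in GOBLET, 124 in PANETH-LINEAGE and 4 in ALL, and Rnase1 in GOBLET-PRE was called at 1.51. The crossed block in ALL called 1 gene.

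Leaving out each library gave 29 to 612 genes in GP (highest without APC-KO replicate 1, lowest without WT replicate 2). The GOBLET-PRE counts were 7 to 64, with APC-KO replicate 2 and WT replicate 1 left out, and in GOBLET 0 to 21, with APC-KO replicate 2 and APC-KO replicate 1 left out. It gave 0 (without WT replicate 1) to 461 in PANETH-LINEAGE, 0 to 405 in EC, 0 to 483 in ALL and 37 (without WT replicate 2) to 552 among types, each highest without APC-KO replicate 1. Rnase1 ranged from -0.58 to 0.58 in GP, 1.14 to 1.88 in GOBLET-PRE, -0.36 to 0.33 in PANETH-LINEAGE and -8.17 to 1.14 in EC, where -8.17 rests on a sum with 0 UMIs and is no bound. Rnase4 ranged from -0.39 to 0.30 in EC and -0.41 to 0.22 in ALL. Ang ranged from -0.07 to 0.55 in GOBLET-PRE, -0.66 to 0.07 in PANETH-LINEAGE, -0.29 to 0.16 in EC and -0.22 to 0.38 in ALL. Ang4 ranged from -1.05 to 0.30 in GOBLET-PRE and -2.42 to 0.22 in GOBLET. The adjusted p among types, by edgeR, ranged from 3.8e-17 to 0.691 for Rnase1 and from 1.6e-04 to 1.00 for Rnase4. The APC-KO ratio of PANETH-PRE to GP for Rnase1 ranged from 4.56 to 6.78. The Ang share difference ranged from -5.34 to 1.71 points in GOBLET-PRE, -0.634 to 6.02 in PANETH-LINEAGE and -1.84 to 1.44 in EC.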
